A study of Homo sapiens with 20 samples.

Results

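CXCL9, CXCL10 and CXCL11 are chemokines that bind the receptor CXCR3. They were taken by symbol from the deposited gene table and made up 3 of its 35168 genes, and all 3 were among the 15043 genes expressed enough to be tested. Their transcript levels were followed in 20 libraries, 4 from each of 5 established human cell lines. In each line the libraries came from cells given interferon gamma and tumor necrosis factor alpha together (IFNg+TNFa), IFNg alone, TNFa alone, or no cytokine (untreated). Each cytokine was used at 10 ng/ml, and exposure lasted 24 h. Of the lines, 3 derive from acute myeloid leukemia (AML), namely Kasumi-1, NOMO-1 and THP-1, and 2 are endothelial, namely iHUVEC and TIME. A treatment was therefore represented by 3 AML libraries and 2 endothelial libraries, with 1 library per line and treatment. The labels name no allele, transgene or repeat culture, so no error within a line could be had. The p-values for treatments rest on how the changes differ between lines, which cannot be parted from the error of single libraries. Those for AML against endothelial levels rest on the spread between lines.

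CXCR3 is carried mainly by activated T cells and natural killer cells, and its ligands draw those cells into inflamed tissue. CXCL9 is also known as monokine induced by gamma interferon, CXCL10 as interferon gamma-induced protein 10, and CXCL11 as interferon-inducible T-cell alpha chemoattractant. IFNg acts through the kinases JAK1 and JAK2 on transcription at GAS elements and raises the transcription factor IRF1. TNFa acts through its receptors on NF-kB, which binds kappaB elements. ISRE elements are bound by interferon regulatory factors.

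The authors deposited TPM, a length-corrected share of each library, so levels of different genes can be set side by side but the sequencing depth is unknown. Column totals ran between 947940 and 995175 TPM. The 4 NOMO-1 libraries stood apart, with 73.2 to 82.1% of the listed TPM in mitochondrial genes, against 11.9 to 24.8% in the other 16 libraries, and with 7510 to 9549 genes at 1 TPM or more, against 11334 to 12353. The part of this share in the NOMO-1 values below was not tested. Values without NOMO-1 are given beside most ligand tests that include AML lines. Cell type labels were checked with fixed markers. The summed level of 7 myeloid markers was 281 to 6201 TPM in AML libraries and 1.99 to 12.2 TPM in endothelial libraries. That of 6 endothelial markers was 1.09 to 22.1 TPM in AML libraries and 718 to 1981 TPM in endothelial libraries, and CDH5 was listed at 0 in all AML libraries. Of 6 markers of other cells, the sum reached 108 TPM in AML libraries, nearly all of it EPCAM in Kasumi-1, and 36.8 TPM in endothelial libraries, nearly all of it KRT8. With IFNg+TNFa relative to IFNg over all lines, 1 of 6 endothelial markers (PECAM1) and 1 of 6 other markers (KRT8) were called lower (limma). There 0 of 7 myeloid markers were called, where 13.5% of all tested genes were called lower. With IFNg+TNFa relative to untreated AML cells, 2 of 7 myeloid markers were called higher (SPI1, PTPRC) and 2 lower (MPO, KIT). The shares of all tested genes were 7.33% and 18.6%. In AML lines CD33 was called lower relative to IFNg and LYZ relative to TNFa, where 6.13% and 4.23% of tested genes were. In endothelial lines 2 of 6 endothelial markers (VWF, TIE1) were called lower than untreated, where 10.3% of tested genes were. The part of these markers in the ligand results was not tested.

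The 3 genes lie on the minus strand of chromosome 4 (GRCh38, GENCODE v29), CXCL9 (ENSG00000138755) at 76001275-76007488, CXCL10 (ENSG00000169245) at 76021117-76023497 and CXCL11 (ENSG00000169248) at 76033682-76041415. Their promoter windows are shown because the study applied the cytokines whose factors bind the elements named above. Each runs 5′ to 3′ from 250 bases before to 50 bases after the RefSeq start site (GRCh38.p14), at chr4:76007460-76007759 for CXCL9, chr4:76023448-76023747 for CXCL10 and chr4:76036021-76036320 for CXCL11, all on the minus strand. Capitals mark the motif matches described next.
CXCL9: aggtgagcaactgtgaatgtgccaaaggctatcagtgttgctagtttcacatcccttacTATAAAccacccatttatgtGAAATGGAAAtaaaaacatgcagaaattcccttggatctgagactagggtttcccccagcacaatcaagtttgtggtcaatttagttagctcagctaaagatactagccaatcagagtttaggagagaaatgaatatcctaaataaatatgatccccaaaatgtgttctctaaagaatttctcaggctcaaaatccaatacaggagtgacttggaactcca
CXCL10: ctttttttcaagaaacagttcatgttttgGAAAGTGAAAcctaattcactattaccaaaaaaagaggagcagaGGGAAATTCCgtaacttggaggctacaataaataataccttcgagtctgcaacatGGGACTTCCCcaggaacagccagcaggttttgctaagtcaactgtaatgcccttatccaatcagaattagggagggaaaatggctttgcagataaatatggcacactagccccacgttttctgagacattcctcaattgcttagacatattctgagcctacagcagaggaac
CXCL11: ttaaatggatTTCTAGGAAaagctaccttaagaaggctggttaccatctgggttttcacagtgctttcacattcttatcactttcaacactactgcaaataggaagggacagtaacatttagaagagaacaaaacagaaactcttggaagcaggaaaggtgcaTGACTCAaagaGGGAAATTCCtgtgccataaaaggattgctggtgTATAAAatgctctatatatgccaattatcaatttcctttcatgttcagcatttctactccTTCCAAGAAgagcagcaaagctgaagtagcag

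Motifs were searched on both strands, the ISRE as GAAA and GAAA with any 2 bases between, the GAS as TTCNNNGAA, the kappaB element by its usual degenerate form, the TATA box as TATAAA and the AP-1 element as TGANTCA. No matches overlapped one another. The CXCL9 window held an ISRE match, GAAATGGAAA, at -171 to -162 and a TATA match at -191 to -186, counting the start site as 0. The CXCL10 window held an ISRE match, GAAAGTGAAA, at -221 to -212 and 2 kappaB matches, GGGAAATTCC at -177 to -168 and GGGACTTCCC at -122 to -113. The CXCL11 window held the same 10 letters GGGAAATTCC as a kappaB match at -76 to -67, 2 GAS matches, at -240 to -232 and 18 to 26, an AP-1 match at -87 to -81 and a TATA match at -42 to -37. The GENCODE transcript CXCL11-201 begins at 76036197, inside this window, so all CXCL11 matches except the upstream GAS lie after that start. Of 35116 promoter windows of the same length, 3.57% held the ISRE letters, 7.66% the GAS, 11.27% the kappaB, 11.53% the TATA and 7.71% the AP-1 letters. A match is a description of the letters and not evidence of binding.

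**Figure D1:**
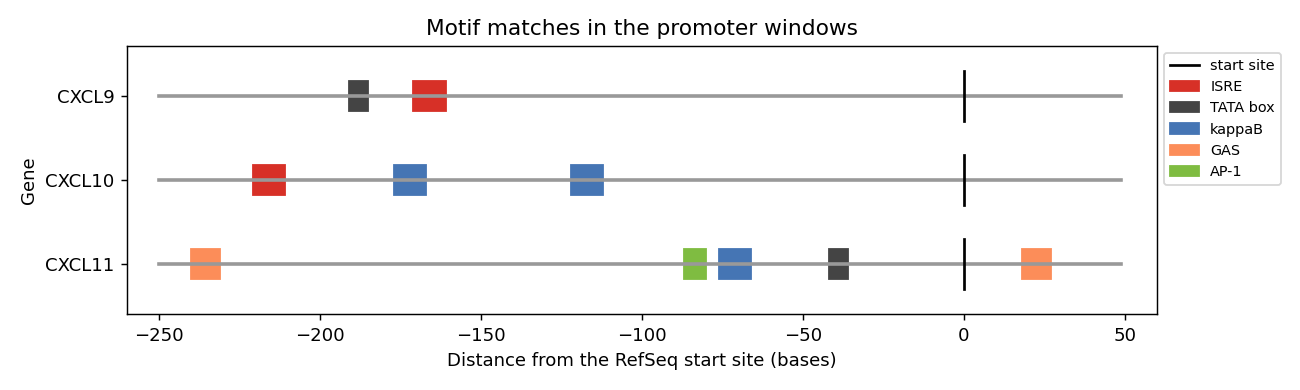
Motif matches in the promoter windows of CXCL9, CXCL10 and CXCL11, by distance from the RefSeq start site in bases (x axis), with 1 line per gene (y axis). Coloured boxes are matches drawn to scale: an ISRE in CXCL9 and CXCL10, kappaB elements in CXCL10 and CXCL11, and GAS elements in CXCL11.

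Every line had far more transcript of all 3 ligands with IFNg+TNFa than with either cytokine alone. With IFNg+TNFa, CXCL9 stood at 7199, 140.2 and 979 TPM in Kasumi-1, NOMO-1 and THP-1, and at 3376 and 7747 TPM in iHUVEC and TIME. With IFNg alone it stood at 102.6, 14.7 and 16.1 TPM in the same AML lines and at 51.8 and 25.6 TPM in iHUVEC and TIME. The libraries with both cytokines were all above those with IFNg across the 5 lines, the closest being NOMO-1 with both and Kasumi-1 with IFNg. The share of all tested genes with no such overlap was not computed. With TNFa alone CXCL9 was at 0.0373, 0 and 0 TPM in the AML lines and at 2.03 and 0.0416 TPM in iHUVEC and TIME. In untreated cells it was at 0, 0 and 0.0359 TPM in the AML lines and at 0 and 0.0875 TPM in iHUVEC and TIME. CXCL9 was thus near 0 without IFNg in all libraries except iHUVEC with TNFa.

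CXCL10 was the most abundant ligand in all 5 libraries with both cytokines. It stood at 15837, 344 and 6429 TPM in Kasumi-1, NOMO-1 and THP-1 with IFNg+TNFa, and at 14918 and 10544 TPM in iHUVEC and TIME. It ranked 3rd, 48th and 17th of all listed genes in those AML libraries and 4th and 8th in iHUVEC and TIME. With IFNg alone it was at 597, 91.9 and 63.7 TPM in the AML lines and at 93.3 and 20.6 TPM in iHUVEC and TIME. Within each line the value with both cytokines was the higher, but NOMO-1 with both was below Kasumi-1 with IFNg, so the groups overlapped. With TNFa alone it was at 65.7, 0.0413 and 2.14 TPM in the AML lines and at 1609 and 3.11 TPM in iHUVEC and TIME. In untreated cells it was at 0, 0 and 0.0976 TPM in the AML lines and at 0.852 and 0.516 TPM in iHUVEC and TIME. iHUVEC and Kasumi-1 stood above the other lines under TNFa, and iHUVEC was the line in which TNFa alone gave more CXCL10 than IFNg alone, 17.3-fold.

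With both cytokines CXCL11 had the widest range between lines as a ratio of highest to lowest, and NOMO-1 was the lowest. The other lines lay between 1269 and 10105 TPM for CXCL11, and between 979 and 7747 TPM for CXCL9. It stood at 10105, 15.5 and 1269 TPM in Kasumi-1, NOMO-1 and THP-1 with IFNg+TNFa, and at 8237 and 6926 TPM in iHUVEC and TIME. With IFNg alone it was at 286, 1.14 and 15.2 TPM in the AML lines and at 1130.2 and 547 TPM in iHUVEC and TIME. Each line was higher with both cytokines than with IFNg, and across lines the groups overlapped, because both endothelial lines with IFNg exceeded NOMO-1 with both. With TNFa alone it was at 3.82, 0 and 0.561 TPM in the AML lines and at 710.0 and 3.02 TPM in iHUVEC and TIME. In untreated cells it was at 0, 0 and 0.0245 TPM in the AML lines and at 1.19 and 0.388 TPM in iHUVEC and TIME. As for CXCL10, iHUVEC stood far above the other lines under TNFa. In these bulk libraries, a smaller share of responding cells and less RNA per cell cannot be told apart.

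**Figure D2:**
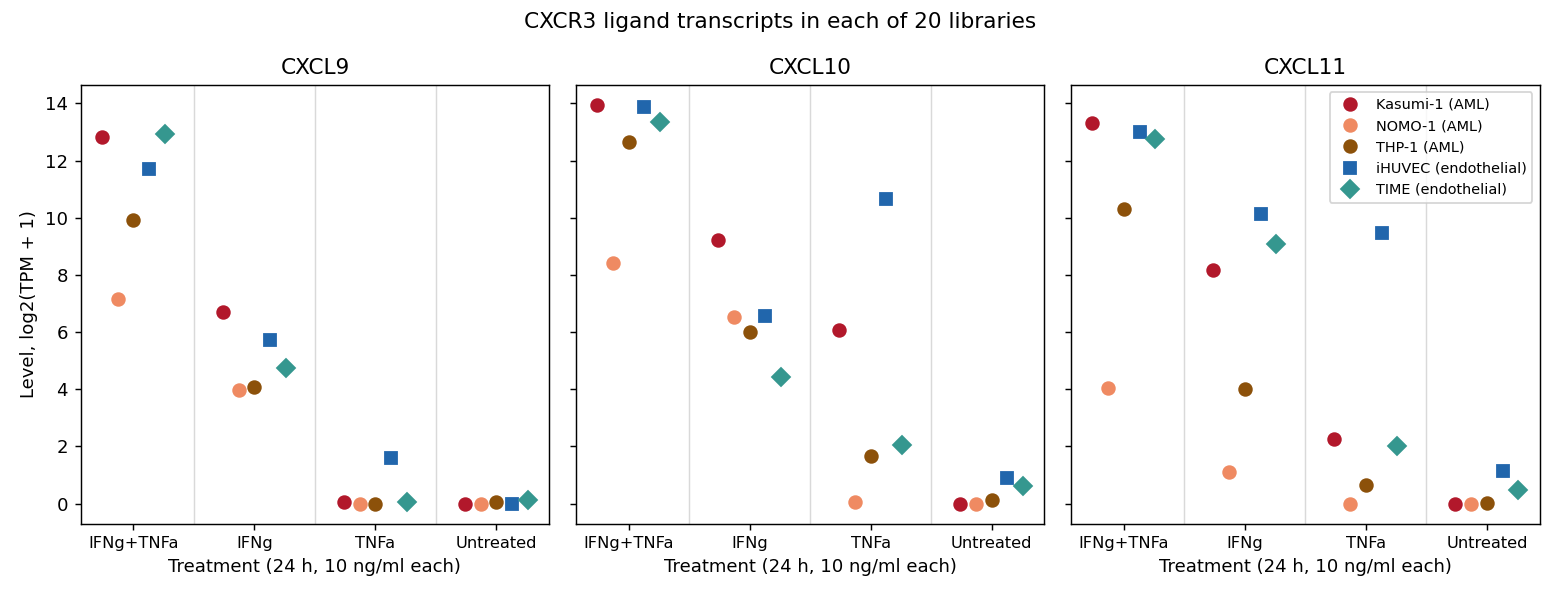
Levels of CXCL9, CXCL10 and CXCL11 as log2(TPM + 1) (y axis) in each of 20 libraries, by treatment (x axis). Points are single libraries, circles for AML lines and squares or diamonds for endothelial lines. Libraries with both cytokines are highest in every line, and iHUVEC stands apart under TNFa for CXCL10 and CXCL11.

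Ordered by mean log2(TPM + 1), AML lines with IFNg+TNFa had 9.96 ± 2.84 for CXCL9, 11.68 ± 2.89 for CXCL10 and 9.22 ± 4.72 for CXCL11 (SD, n = 3). Endothelial lines with IFNg+TNFa had the highest level of each ligand, 12.32 ± 0.85 for CXCL9, 13.61 ± 0.35 for CXCL10 and 12.88 ± 0.18 for CXCL11 (SD, n = 2). For CXCL9 the order went on with endothelial and AML lines with IFNg, then endothelial lines with TNFa, with the other groups near 0. For CXCL10 it went on with AML lines with IFNg, endothelial lines with TNFa, endothelial lines with IFNg and AML lines with TNFa. For CXCL11, endothelial lines with IFNg, at 9.62 ± 0.74, came before AML lines with IFNg+TNFa, and endothelial lines with TNFa before AML lines with IFNg. Without NOMO-1 both of these orders turned, with CXCL11 means of 11.81 in AML lines with IFNg+TNFa and 6.09 in AML lines with IFNg, beside 5.74 in endothelial lines with TNFa. So did that of CXCL9 with IFNg, at 5.40 in AML lines without NOMO-1 and 5.23 in endothelial lines. Neighbours in these orders overlapped in their ranges, except AML lines with IFNg+TNFa and endothelial lines with IFNg for CXCL9, AML lines with IFNg and endothelial lines with TNFa for CXCL9, endothelial lines with both and with IFNg for CXCL11, and untreated endothelial and AML lines for CXCL10 and CXCL11. These exceptions are a description, as the share of all tested genes without overlap was not computed.

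The central comparison was of both cytokines with each alone. Over all 5 lines, all 3 ligands rose with IFNg+TNFa relative to IFNg, where 2.25% of 15043 tested genes were called higher (limma, adjusted p under 0.05). The log2 change of CXCL9 was 5.86 ± 0.68 (SE, limma, adjusted p = 0.000297), that of CXCL10 was 5.90 ± 1.22 (adjusted p = 0.00588), and that of CXCL11 was 4.18 ± 1.25 (adjusted p = 0.0335). The median change of the 3 ligands was 5.86, beside -0.17 over all tested genes. The background depended on the scaling. Of all calls in this comparison 14.3% were higher, against 54% with median-of-ratios scaling, where 6.03% of genes and again all 3 ligands were called higher. Over the comparisons of IFNg+TNFa with IFNg, TNFa or untreated cells within a cell type, 16.6 to 35.8% of calls were higher, against 51.3 to 60.4% with that scaling. Per line, TPM with both over TPM with IFNg ran between 9.56-fold in NOMO-1 and 302-fold in TIME for CXCL9, between 3.75-fold in NOMO-1 and 512-fold in TIME for CXCL10, and between 7.29-fold in iHUVEC and 83.7-fold in THP-1 for CXCL11. The direction was the same in 5 of 5 lines for each ligand. Without NOMO-1 the log2 changes were 6.54, 6.90 and 4.49 for CXCL9, CXCL10 and CXCL11, and all were called. The call of CXCL11 was lost without Kasumi-1, THP-1 or TIME (adjusted p = 0.0895, 0.13 and 0.0831) and with no filter on low values (adjusted p = 0.0756).

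Relative to TNFa alone, all 3 ligands rose over the 5 lines, where 3.36% of tested genes were called higher, or 7.63% with median-of-ratios scaling. CXCL9 changed by 10.56 ± 0.68 on the log2 scale (SE, limma, adjusted p = 8.0e-07), and it ranked 1st of the 15043 genes by p-value. CXCL10 changed by 8.36 ± 1.22 (adjusted p = 0.00118) and CXCL11 by 7.81 ± 1.25 (adjusted p = 0.00203). Where TNFa alone gave at least 1 TPM, the ratio of levels could be taken. For CXCL9 it was 1659 in iHUVEC. For CXCL10 it was 241 in Kasumi-1, 3011 in THP-1, 9.27 in iHUVEC and 3392 in TIME. For CXCL11 it was 2644 in Kasumi-1, 11.6 in iHUVEC and 2293 in TIME. iHUVEC had the lowest ratio for CXCL10 and for CXCL11. Without NOMO-1 the log2 changes were 11.42, 8.36 and 8.75 for CXCL9, CXCL10 and CXCL11.

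Tests within a cell type took 1 estimate of spread per gene from all 20 libraries, so they also rest on lines of the other cell type. In the AML lines CXCL9 was the ligand called higher with IFNg+TNFa than with IFNg, 1 of 3, where 1.22% of tested genes were called, or 3.86% with median-of-ratios scaling. Its log2 change was 5.04 ± 0.86 (SE, limma, adjusted p = 0.0116). CXCL10 had 4.42 ± 1.43 (adjusted p = 0.0744) and CXCL11 had 4.79 ± 1.57 (adjusted p = 0.0767), which missed the threshold. Without NOMO-1 the CXCL9 change was 5.98 and was called, and those of CXCL10 and CXCL11 were 5.68 and 5.72. Without THP-1, iHUVEC or TIME the adjusted p of CXCL9 was 0.0522, 0.101 and 0.101. Relative to TNFa all 3 ligands rose in AML lines, where 2.36% of tested genes were called higher (7.14% with median-of-ratios scaling), by 9.95 ± 0.86 for CXCL9, 9.09 ± 1.43 for CXCL10 and 8.25 ± 1.57 for CXCL11 (adjusted p = 0.000191, 0.00441 and 0.0121). Without NOMO-1 these changes were 11.35, 9.45 and 10.35, and all were called. Without THP-1 the adjusted p was 0.0645 for CXCL10 and 0.105 for CXCL11, and for CXCL11 it was 0.0815 without Kasumi-1, 0.0674 without iHUVEC and 0.0675 without TIME.

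In the endothelial lines CXCL9 and CXCL10 rose with IFNg+TNFa relative to IFNg, 2 of 3 ligands, where 1.80% of tested genes were called higher, or 2.69% with median-of-ratios scaling. The log2 change was 7.09 ± 1.05 for CXCL9 (SE, limma, adjusted p = 0.00215) and 8.12 ± 1.76 for CXCL10 (adjusted p = 0.0161). CXCL11, which was already high with IFNg, had 3.26 ± 1.92 (adjusted p = 0.39). Both calls were lost without TIME (adjusted p = 0.192 for CXCL9 and 0.173 for CXCL10), and that of CXCL10 was lost without iHUVEC (adjusted p = 0.0559). Relative to TNFa, CXCL9 and CXCL10 rose, 2 of 3, where 0.877% of tested genes were called higher (1.38% with median-of-ratios scaling), by 11.49 ± 1.05 and 7.27 ± 1.76 (adjusted p = 0.000479 and 0.0392). CXCL11 had 7.14 ± 1.92 (adjusted p = 0.0591), and it was called without Kasumi-1 or NOMO-1 (adjusted p = 0.0444 and 0.0376), with median-of-ratios scaling (0.0363) and with mitochondrial genes removed (0.0395). The CXCL10 change was 3.21 without TIME (adjusted p = 1) and 11.33 without iHUVEC, and it lost its call without NOMO-1 or THP-1 (adjusted p = 0.0512 and 0.0979).

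The level with both cytokines was also set against the sum of the levels with each alone, a comparison added after the data were seen. The ratio exceeded 1 in 5 of 5 lines for every ligand. Its geometric mean was 59.9 for CXCL9, with lines between 9.56 and 302. It was 32.1 for CXCL10, with lines between 3.75 and 445, and 18.5 for CXCL11, with lines between 4.48 and 80.8. Since CXCL9 was near 0 with TNFa alone except in iHUVEC, its ratio was close to that over IFNg alone. The exact two-sided sign-flip test over 5 lines gave p = 0.0625 for each of the 3 ligands, which is the smallest p that 5 lines allow, so the design cannot reach 0.05 here. Without NOMO-1 the geometric means were 94.8, 54.9 and 19.96 for CXCL9, CXCL10 and CXCL11. Without TIME that of CXCL10 was 16.6.

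**Figure D3:**
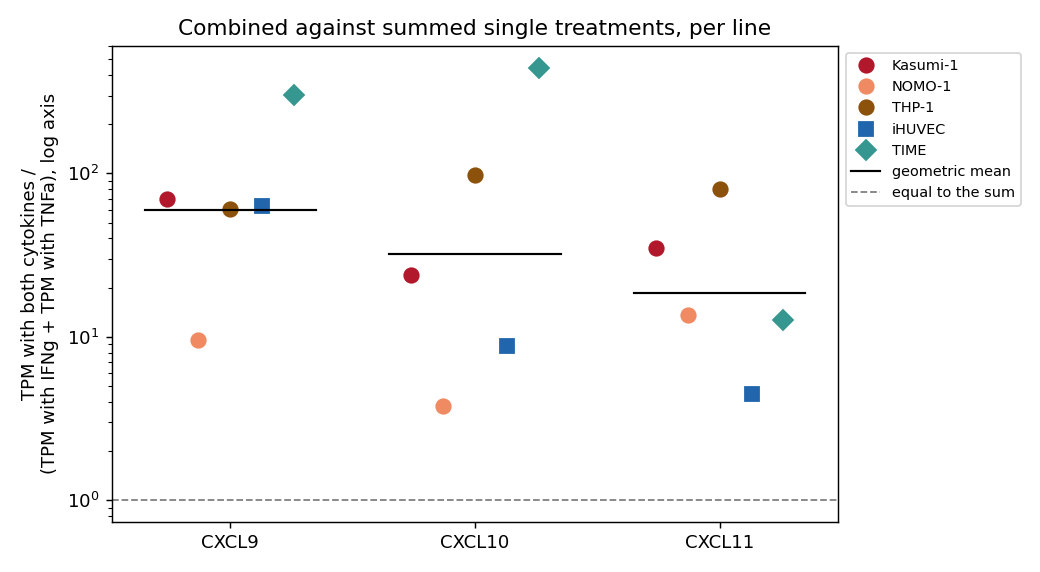
Ratio of the TPM with both cytokines to the summed TPM with IFNg alone and TNFa alone (y axis, log scale), for each ligand (x axis) and line (points, coloured by line). Black bars are geometric means over 5 lines and the dashed line marks a ratio of 1. All 15 points lie above 1, NOMO-1 is lowest for CXCL9 and CXCL10, and iHUVEC is lowest for CXCL11.

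Another scale asks whether the change with both cytokines exceeds the sum of the single log2 changes. That is more than the product of the single folds, on values with 1 TPM added. By limma 0 of 3 ligands were called in either cell type or over all 5 lines, where 0% of tested genes were called higher in each. At an unadjusted p under 0.05 there were 743 genes in AML lines, 706 in endothelial lines and 1057 over all lines, and CXCL9 was the 1 ligand among them in each. Its departure was 5.04 ± 1.22 in AML lines (SE, limma, adjusted p = 0.939) and 6.32 ± 1.49 in endothelial lines (adjusted p = 0.409). Without NOMO-1 that in AML lines was 5.98. CXCL9 departed by 5.56 ± 0.96 over all lines (SE, limma, adjusted p = 0.217) and ranked 2nd of all tested genes by p-value. It was above 0 in 5 of 5 lines, between 3.17 in NOMO-1 and 8.25 in TIME. CXCL9 was near 0 untreated and, except in iHUVEC, with TNFa alone. Its departure therefore largely repeats its change with both cytokines over IFNg, which was 5.04 in AML lines and 5.86 over all lines. It is not a separate result. CXCL10 departed by 2.13 ± 1.73 (adjusted p = 0.85), with lines between -2.46 in iHUVEC and 7.49 in TIME. CXCL11 departed by 1.63 ± 1.77 (adjusted p = 0.907), with lines between -5.48 in iHUVEC and 5.69 in THP-1. Values below 0 occurred in iHUVEC for CXCL10 and CXCL11 and in Kasumi-1 for CXCL10, at -1.33. Without NOMO-1 the departures of CXCL10 and CXCL11 were 2.21 and 1.30. CXCL9 was called without NOMO-1 (6.15, adjusted p = 0.0235), with median-of-ratios scaling (5.96, adjusted p = 0.00167) and with mitochondrial genes removed (5.64, adjusted p = 0.0127).

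Relative to untreated cells, IFNg+TNFa raised all 3 ligands in both cell types. In AML lines the log2 changes were 9.95 ± 0.86 for CXCL9, 11.63 ± 1.43 for CXCL10 and 9.21 ± 1.57 for CXCL11 (SE, limma, adjusted p = 6.77e-05, 0.000362 and 0.00212), where 7.33% of tested genes were called higher, or 15.3% with median-of-ratios scaling. In endothelial lines they were 12.26 ± 1.05, 12.87 ± 1.76 and 12.08 ± 1.92 for CXCL9, CXCL10 and CXCL11 (adjusted p = 2.42e-05, 0.00062 and 0.00152), where 4.18% were called, or 6.67% with that scaling. Without NOMO-1 the AML changes were 11.35, 13.23 and 11.79, and all were called. The CXCL11 call in endothelial lines was lost without TIME (adjusted p = 0.0616), and that in AML lines with no replicate block (adjusted p = 0.0827). Untreated levels at or near 0 make the size of these changes depend on the pseudocount of 1 TPM.

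IFNg alone raised CXCL9 and CXCL10 in AML lines, 2 of 3 ligands, where 0.638% of tested genes were called higher. The log2 change was 4.90 ± 0.86 for CXCL9 (SE, limma, adjusted p = 0.0188) and 7.21 ± 1.43 for CXCL10 (adjusted p = 0.0429), while CXCL11 had 4.41 ± 1.57 (adjusted p = 0.37). CXCL11 was called with a pseudocount of 0.1 (7.35, adjusted p = 0.0374), and without NOMO-1 it had 6.07 and CXCL10 had 7.55, neither called. CXCL9 kept its call without NOMO-1 (5.37, adjusted p = 0.0223) and lost it without Kasumi-1, THP-1, iHUVEC or TIME (adjusted p = 0.0578, 0.198, 0.228 and 0.227). CXCL10 lost its call without any 1 of the 5 lines (adjusted p between 0.0985 and 0.243). In endothelial lines 0 of 3 were called higher, where 0.346% of tested genes were. All 3 were among the 760 genes of either direction with an unadjusted p under 0.05 (limma). Of all calls there 81.2% were higher, or 96.6% with median-of-ratios scaling. The log2 changes there were 5.17 ± 1.05 for CXCL9, 4.75 ± 1.76 for CXCL10 and 8.82 ± 1.92 for CXCL11 (adjusted p = 0.0622, 0.648 and 0.0868). CXCL9 was called without Kasumi-1 or NOMO-1 (adjusted p = 0.0137 and 0.0416).

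TNFa alone raised none of the 3 ligands past the threshold in either cell type (limma). In AML lines 0.0864% of tested genes were called higher. At an unadjusted p under 0.05 there were 1044 genes of either direction and 0 ligands. CXCL9 changed by 0.00 ± 0.86, CXCL10 by 2.54 ± 1.43 and CXCL11 by 0.96 ± 1.57 on the log2 scale. Without NOMO-1 these were 0.00, 3.79 and 1.44. In endothelial lines 0.784% were called higher. At an unadjusted p under 0.05 there were 1022 genes of either direction, with 2 ligands among them. CXCL9 had 0.77 ± 1.05, CXCL10 had 5.60 ± 1.76 and CXCL11 had 4.94 ± 1.92 (adjusted p = 1, 0.259 and 0.513). The endothelial means join unlike lines, since the log2 change of CXCL10 was 9.76 in iHUVEC and 1.44 in TIME, and that of CXCL11 was 8.34 in iHUVEC and 1.53 in TIME. Among AML lines Kasumi-1 had the largest changes, 6.06 for CXCL10 and 2.27 for CXCL11.

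AML and endothelial responses were not distinguished by the test of their difference (limma, 0 of 3 ligands for each treatment, and 0 at an unadjusted p under 0.05). The share of tested genes called in either direction was 2.28% for IFNg+TNFa, 0.00665% for IFNg and 0.259% for TNFa. At an unadjusted p under 0.05 there were 2344, 558 and 687 genes. For IFNg+TNFa the AML response minus the endothelial response was -2.31 ± 1.36 for CXCL9, -1.24 ± 2.27 for CXCL10 and -2.87 ± 2.48 for CXCL11 on the log2 scale. Without NOMO-1 these were -0.91, 0.36 and -0.29, closer to 0 for each and of the other sign for CXCL10. For IFNg it was -0.26 ± 1.36, 2.46 ± 2.27 and -4.40 ± 2.48, with a 95% interval for CXCL11 between -9.77 and 0.96. Without NOMO-1 these were 0.20, 2.80 and -2.75. For TNFa the difference was -0.77 ± 1.36, -3.06 ± 2.27 and -3.98 ± 2.48, and without NOMO-1 it was -0.77, -1.81 and -3.50. The intervals leave room for differences of many-fold. Levels were also compared directly. With IFNg+TNFa, AML minus endothelial levels were -2.36 ± 1.64 for CXCL9, -1.94 ± 1.70 for CXCL10 and -3.66 ± 1.84 for CXCL11 (adjusted p = 0.591, 0.719 and 0.327), where 6.80% of 12644 genes were called in either direction. With IFNg alone they were -0.31 ± 1.01, 1.76 ± 1.17 and -5.19 ± 1.79 (adjusted p = 0.883, 0.447 and 0.135), where 9.05% of 12874 genes were called. CXCL11 with IFNg had an unadjusted p of 0.02 and was called without Kasumi-1 (-7.06, adjusted p = 0.0141) or without TIME (-5.72, adjusted p = 0.0269). With IFNg+TNFa it was called without Kasumi-1 (-5.70, adjusted p = 0.0273), and without NOMO-1 the differences were -0.95, -0.31 and -1.08 for CXCL9, CXCL10 and CXCL11. With IFNg alone they were 0.17, 2.12 and -3.53 without NOMO-1.

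CXCL10 held the largest share of the 3 ligands in every line under both cytokines, but not under IFNg alone. With IFNg+TNFa, CXCL10 held 47.8, 68.9 and 74.1% of their summed TPM in Kasumi-1, NOMO-1 and THP-1, and 56.2 and 41.8% in iHUVEC and TIME. With IFNg alone it held 60.6, 85.3 and 67.1% in the AML lines, but 7.31 and 3.47% in iHUVEC and TIME, where CXCL11 held 88.6 and 92.2%. The ratio of CXCL11 to CXCL10 under IFNg was 0.479, 0.0124 and 0.238 in the AML lines and 12.1 and 26.6 in iHUVEC and TIME, so the groups did not overlap, with or without NOMO-1. The mean log2 ratio, on values with 1 TPM added, was -2.83 ± 2.31 in AML lines (SD, n = 3) and 4.13 ± 0.76 in endothelial lines (SD, n = 2), a difference of -6.96. The exact two-sided permutation test gave p = 0.1, the smallest that 3 against 2 lines allow. This ratio was not among the planned comparisons. The share of other gene pairs whose ratio separates the groups was not computed, so the p-value is given as a description. With both cytokines the means were -2.46 ± 1.87 in AML lines and -0.73 ± 0.18 in endothelial lines. NOMO-1 then had -4.39, beside -0.648 in Kasumi-1 and -2.34 in THP-1. The exact permutation p for the difference of -1.73 between the means was 0.3.

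**Figure D4:**
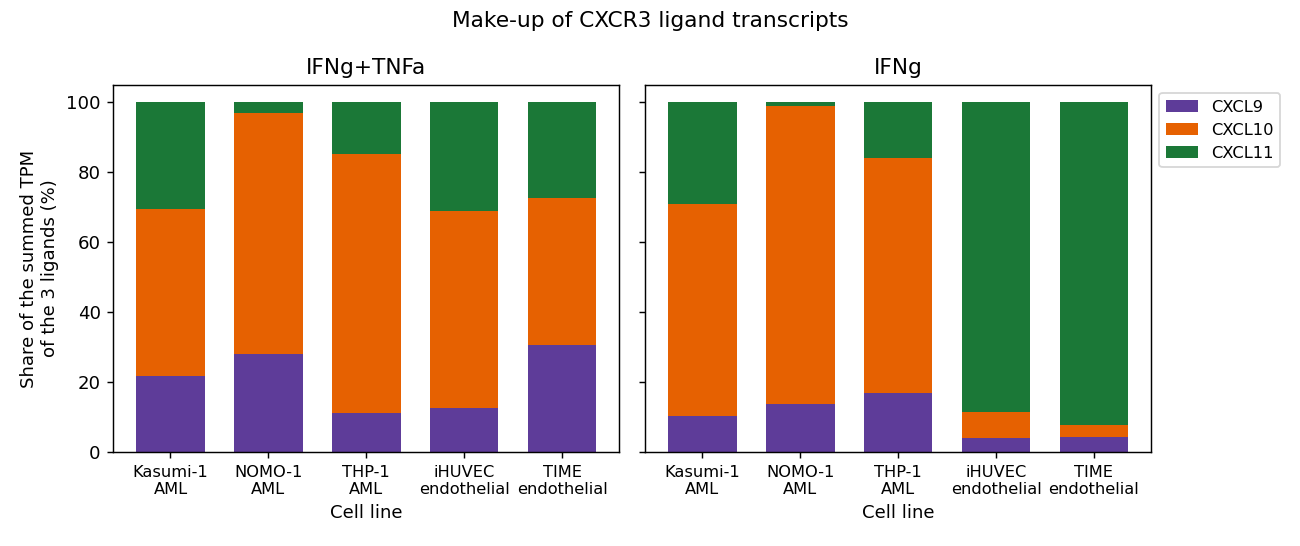
Share of the summed TPM of the 3 ligands held by each (y axis, percent) in each line (x axis), with IFNg+TNFa (left) and IFNg alone (right). CXCL10 holds the largest share in all 5 lines with both cytokines, and CXCL11 holds 88.6 and 92.2% in iHUVEC and TIME with IFNg alone.

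The summed level of the ligands with both cytokines was 33140.2, 499.9 and 8677 TPM in Kasumi-1, NOMO-1 and THP-1, and 26531 and 25217 TPM in iHUVEC and TIME. This was 3.48, 0.0503 and 0.89% of the listed TPM in the AML lines and 2.75 and 2.66% in iHUVEC and TIME. NOMO-1 was the lowest line. With TPM rescaled to the same total without mitochondrial genes, NOMO-1 had 787 for CXCL9, 1932 for CXCL10 and 87.1 for CXCL11 with both cytokines, still the lowest of the 5 lines for each ligand.

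Of 7 genes for the receptor, for related ligands and for removal of these chemokines, 3 were expressed enough to be tested, and 0 were called in any comparison between treatments. CXCR3 itself was at most 2.02 TPM, in Kasumi-1 with both cytokines, and was listed at 0 in all 8 endothelial libraries. ACKR3, a scavenging receptor of CXCL11, stood at 95.5 TPM in iHUVEC with both cytokines, 14.9 with IFNg, 94.1 with TNFa and 11.6 untreated, and under 2 TPM in all other lines. DPP4, the peptidase that trims these chemokines, was at most 0.46 TPM in AML libraries and at 2.67 to 8.99 TPM in endothelial libraries, and it was lower in AML lines under both cytokines (-2.63 ± 0.71, SE, limma, adjusted p = 0.0176) and under IFNg (-2.66 ± 0.44, adjusted p = 0.00887).

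Genes of the IFNg pathway were compared as a list of 11, all tested. With IFNg+TNFa relative to untreated cells 7 rose in AML lines, 6 rose in endothelial lines and none fell, where 7.33% and 4.18% of all tested genes were called higher. With IFNg alone 3 rose in AML lines (IRF1, IRF9 and SOCS1) and 1 in endothelial lines (IRF1), and with TNFa alone IRF1 rose in endothelial lines, where 0.638%, 0.346% and 0.784% of all tested genes were called higher. Over all lines 1 of 11, the receptor chain IFNGR2, was higher with both cytokines than with IFNg, by 1.45 ± 0.31 (SE, limma, adjusted p = 0.00735), where 2.25% of all tested genes were. Relative to TNFa, where 3.36% of all tested genes were higher, 5 of 11 were higher with both cytokines (JAK2, STAT2, IRF1, SOCS1 and SOCS3), among them IRF1 by 3.90 ± 0.40 (SE, limma, adjusted p = 8.65e-05). The median log2 change of this list was 0.77 for both cytokines over IFNg, beside 5.86 for the 3 ligands.

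Genes of TNF and NF-kB signalling were compared as a list of 12, all tested. With both cytokines 8 of 12 were higher than with IFNg over all lines and none was lower, where 2.25% of all tested genes were called higher and 13.5% lower. They included NFKBIA, the inhibitor of NF-kB, with 3.55 ± 0.35 (SE, limma, adjusted p = 0.000115), TNFAIP3, a deubiquitinase that restrains the pathway, with 4.28 ± 0.42 (adjusted p = 0.000115), and the NF-kB subunit RELB with 2.75 ± 0.34 (adjusted p = 0.000477). Relative to TNFa alone, where 3.36% of all tested genes were higher, 1 of 12, the adaptor TRADD, was higher (1.21 ± 0.40, adjusted p = 0.048). With TNFa alone RELB, NFKBIA and TNFAIP3 rose in both cell types, and with IFNg alone 0 of 12 were called in either cell type (limma). The shares of all tested genes called higher were 0.0864% and 0.784% with TNFa, and 0.638% and 0.346% with IFNg, in AML and endothelial lines.

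Values of the interferon genes are given beside the 2 lines that had CXCL10 above 60 TPM with TNFa alone. IFNB1, which encodes interferon beta, was at 31.1 TPM in Kasumi-1 with both cytokines, 0.447 with IFNg, 0.242 with TNFa and 0.0584 untreated. In iHUVEC it was at 9.46 TPM with both, 0 with IFNg, 2.94 with TNFa and 0 untreated, and in TIME at 0.525 TPM with both, while NOMO-1 was listed at 0 throughout and THP-1 stayed under 0.1 TPM. No change of IFNB1 was called in any comparison. The part of interferon beta in the ligand levels was not tested.

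**Figure D5:**
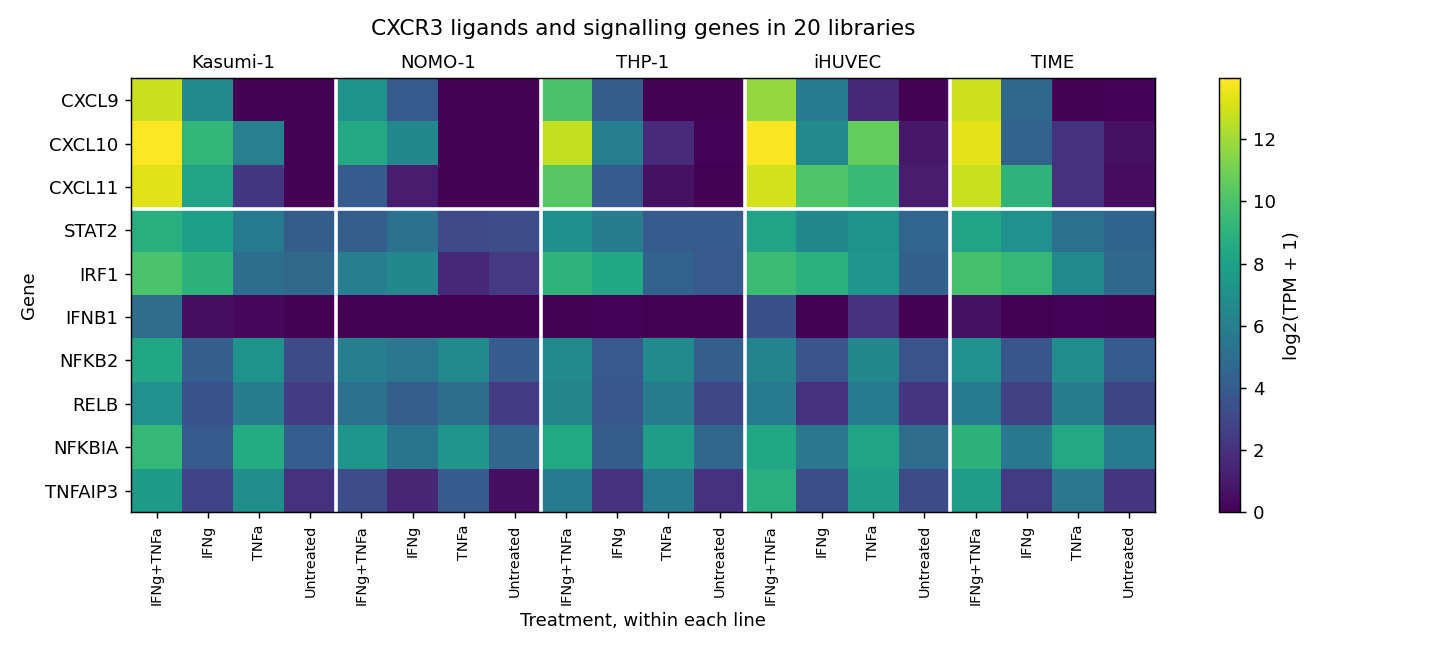
Levels of the 3 ligands and of 7 signalling genes (rows) as log2(TPM + 1) (colour) in 20 libraries (columns, by line and treatment). In every line IRF1 is higher with both cytokines and with IFNg than with TNFa, NFKBIA and TNFAIP3 are higher with both and with TNFa than with IFNg, and the ligands reach their highest levels with both.

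The ligands moved together over the 20 libraries. After subtraction of each line's mean, Pearson's r of log2(TPM + 1) was 0.91 between CXCL9 and CXCL10, 0.93 between CXCL9 and CXCL11, and 0.92 between CXCL10 and CXCL11. These points share 5 lines and 4 treatments and are given as a description. The genes whose pattern was most like that of CXCL9 were ATF3 (r = 0.947), TRAFD1, GBP1P1, CD274 and SCYL3. For CXCL10 they were GCH1 (r = 0.976), RNF213, PLSCR1, IFI6 and TYMP, and for CXCL11 they were APOBEC3G (r = 0.952), IFIT3, ATF3, STAT2 and TMEM140. GCH1, the first enzyme of tetrahydrobiopterin synthesis, ran between 27.2 and 186 TPM with both cytokines, 13.7 and 54.9 with IFNg, 0.851 and 29.2 with TNFa, and 1.31 and 3.46 untreated.

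The transcript table listed 1 transcript each for CXCL9 and CXCL10 and 2 for CXCL11. CXCL11-202, which starts upstream at 76041415, was at 2.93, 0 and 0.0995 TPM in Kasumi-1, NOMO-1 and THP-1 with both cytokines, and at 2.68 and 12.5 TPM in iHUVEC and TIME. With IFNg alone it was at 0 in the AML lines and at 0.208 and 2.61 TPM in iHUVEC and TIME, and it was listed at 0 with TNFa and untreated. It held at most 0.478% of the CXCL11 level in any library. The span of the gene ART3 lies on the opposite strand across CXCL10 and CXCL11. Where exons of such pairs overlap, their reads cannot be told apart if strand is ignored. Overlap of exons was not examined, and no source used here states the strand setting. ART3 was at 6.91, 0.0391 and 0.307 TPM in Kasumi-1, NOMO-1 and THP-1 with both cytokines, and at 6.94 and 7.01 TPM in iHUVEC and TIME. It rose in endothelial lines with both cytokines relative to untreated, by 2.83 ± 0.79 (SE, limma, adjusted p = 0.0313). Of the other listed genes within 250 kb, SCARB2 was higher with both cytokines than with TNFa over all lines, by 1.24 ± 0.37 (limma, adjusted p = 0.0319). NAAA, SDAD1 and NUP54 had no call in any comparison between treatments, and PPEF2 and FAM47E were too low to be tested. So was AC112719.1, a processed pseudogene within the CXCL11 span, at 0.692 TPM in TIME with both cytokines and undetected elsewhere. The antisense gene AC112719.2, which overlaps CXCL9, was not among the listed genes.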

How the data were processed

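RNA was taken from 20 cultures, 1 per line and treatment. Per the labels' protocols it was purified with a QIAGEN kit, and libraries followed Illumina procedures and ran on a NovaSeq. Per the submitters' processing notes, Salmon 1.2.0, DESeq2 1.28.1 and GRCh38 p13 were used, with no roles stated. The authors deposited TPM for 35168 genes and 170068 transcripts. TPM keeps no depth, so no counting interval is given. Annotation release and strandedness are not given in the sources used here. Columns named x2 were read as both cytokines, the treatment left without a column in each line. Symbols came from a table of gene names for 35051 IDs and from GENCODE v29 for 110, and 7 had none.

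Here log2(TPM + 1) was tested with limma 3.58.1 (R 4.3.3), with a trend on mean expression, for 15043 genes with at least 1 TPM in at least 2 libraries. All p-values were adjusted by Benjamini-Hochberg over all tested genes, with calls made below 0.05. Fits had a term for line and for treatment, within cell type or common to all lines. Both main fits held all 20 libraries, so AML and endothelial lines shared 1 estimate of spread per gene. The fit within cell type had 9 residual degrees of freedom. The line pairs libraries by design, and deviations from group means correlated between 0.65 and 0.90 over 30 pairs of libraries of 1 line, none of them identical. AML and endothelial levels were compared among 5 libraries of 1 treatment with 3 residual degrees of freedom. Tables and figures used Python 3.11.15, pandas 2.3.3 and matplotlib 3.10.9, and promoter sequences are from RefSeq.

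The 3 ligands, the pathway and marker lists and the promoter motifs were chosen with earlier results of these data known. The list of IFNg signalling genes leaves out 1 gene that is not reported here. Genes named are the ligands, members of those lists, genes within 250 kb, and the 5 genes most like each ligand in pattern. Alternatives were another pseudocount, other filters, scaling by median of ratios, mitochondrial genes removed, no line term, no variance trend, each cell type alone and each line left out.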

Additional observations from a re-analysis of the deposited data

How the results depend on the processing

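Under the alternatives 750 log2 changes of the ligands were recomputed, the added TPM ratios aside. Of these, 663 kept direction and side of the threshold, 44 lost the call, 22 gained it and 21 changed sign. Depth is unknown, and values near 0 rest on the pseudocount. The cause of the changes was not tested.

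The number of ligands called changed as follows. For IFNg in AML lines (2 called) it was 3 with a pseudocount of 0.1, 0 with no filter on low values and 0 with no replicate block, and 0 to 1 with 1 line left out. For IFNg in endothelial lines (0 called) it was 2 with a pseudocount of 0.1, 2 with mitochondrial genes removed, 2 with median-of-ratios scaling and 1 with that cell type alone, and 0 to 1 with 1 line left out. For both cytokines over IFNg in AML lines (1 called) it was 2 with mitochondrial genes removed, 2 with median-of-ratios scaling and 0 with no replicate block, and 0 to 1 with 1 line left out. In endothelial lines (2 called) it was 1 with no replicate block and 0 to 2 with 1 line left out. Over all 5 lines (3 called) it was 2 with no filter, 1 with no replicate block and 2 to 3 with 1 line left out. For both cytokines over TNFa in AML lines (3 called) it was 1 with no replicate block and 1 to 3 with 1 line left out. In endothelial lines (2 called) it was 1 with a pseudocount of 0.1, no filter, no replicate block or that cell type alone, 3 with mitochondrial genes removed or with median-of-ratios scaling, and 1 to 3 with 1 line left out. Over all 5 lines (3 called) it was 2 with no replicate block, where CXCL11 lost its call (adjusted p = 0.242). For both cytokines over untreated cells (3 called in each cell type) it was 2 in AML lines with no replicate block, and in endothelial lines 2 to 3 with 1 line left out. The departure over all lines (0 called) was called for 1 ligand with mitochondrial genes removed, 1 with median-of-ratios scaling and 0 to 1 with 1 line left out. The direct AML and endothelial comparisons (0 called) gave 0 to 1 with 1 line left out.

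Signs changed for these log2 values, none of which was called. For TNFa in AML lines CXCL9 was -0.0011 with mitochondrial genes removed, -0.0021 with median-of-ratios scaling and -0.0254 to 0.0264 with 1 line left out. The AML departure of CXCL10 was -0.0240 with a pseudocount of 0.1. The AML minus endothelial response of CXCL9 to IFNg was 0.57 with median-of-ratios scaling and 0.25 without mitochondrial genes, and -1.16 to 0.29 with 1 line left out. The same level difference under IFNg was 0.54 and 0.19 with those settings, and -1.20 to 0.19 with 1 line left out. The AML minus endothelial response of CXCL10 to both cytokines was 0.67 with a pseudocount of 0.1 and -2.40 to 0.36 with 1 line left out. With 1 line left out, endothelial CXCL9 with TNFa was -0.0621 to 1.60, the endothelial departure was -2.46 to 7.49 for CXCL10 and -5.48 to 2.13 for CXCL11, and the AML minus endothelial response to TNFa was -1.60 to 0.0628 for CXCL9 and -7.22 to 1.11 for CXCL10.

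Median-of-ratios scaling moved the median of all genes from -0.17 to 0.00 for both cytokines over IFNg, and from -0.75 to -0.04 for AML over endothelial lines under IFNg. Where a setting leaves 1 library in a group, that library was assumed to vary like the others.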
